A study of Homo sapiens with 52 samples.

Results

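The class 3 semaphorins SEMA3A, SEMA3B, SEMA3C, SEMA3D, SEMA3E and SEMA3F are ligands of the neuropilins, and their mRNA was followed in 3 breast cancer cell lines in which the co-receptor NRP1 had been knocked down. They were found by gene name in the deposited gene tables, where all 6 were present among 78894 genes, and all 6 had enough reads to be tested in each cell line. The data are bulk poly(A) RNA sequencing of 52 samples of SUM159PT (17 samples), MDA-MB-231 (18) and HS578T (17), established lines that the study uses as models of claudin-low breast cancer, a subtype with low levels of tight junction genes. Each line has 6 groups. The non-targeting siRNA siNT and the NRP1 siRNAs siNRP1#3 and siNRP1#5 were transfected at 20 nM and RNA was taken after 72 h, whereas the non-targeting shRNA shNT and the NRP1 shRNAs shNRP1#3 and shNRP1#5 came from a lentivirus, with puromycin selection and RNA taken 48 h after seeding. Sequence #3 was designed against the transmembrane form of NRP1 and differs between siRNA and shRNA, while sequence #5 reaches all NRP1 and is the same in both. There are 16 groups of 3 samples and 2 groups of 2 (siNRP1#5 of SUM159PT lacks replicate 1 and shNRP1#3 of HS578T lacks replicate 3). The shRNA replicates are consecutive passages of transduced cells, so that p-values measure the spread between these passages or transfections.

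Class 3 semaphorins are secreted guidance proteins. Most of them bind NRP1 or NRP2, which have short cytoplasmic tails and pass the signal on through a partner plexin of the A family or PLXND1, and the outcome in the target cell is usually loss of adhesion and collapse of the actin cytoskeleton. SEMA3A is the classic NRP1 ligand and repels axons, SEMA3F prefers NRP2, SEMA3B and SEMA3C can use either neuropilin, and SEMA3E can bind PLXND1 without a neuropilin. In tumours SEMA3B and SEMA3F are best known as growth-restraining ligands and SEMA3C as one that favours migration. Furin-type proteases cut several of them and so change their activity.

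Total expected counts per sample lay between 25310443 and 72003442, with a median of 44804505. A floor of 3 counts corresponded to between 0.037 and 0.142 CPM (library-scaled read counts) in the different samples. NRP1 itself, the targeted gene, had log2 fold changes against the matching non-targeting control from -0.70 (MDA-MB-231 siNRP1#3) to -4.88 (MDA-MB-231 siNRP1#5), and passed the edgeR test in 11 of the 12 comparisons (HS578T shNRP1#3 had -1.59, adjusted p = 0.069). By TPM, NRP1 in MDA-MB-231 siNRP1#3 was 28.5 ± 3.36 against 28.8 ± 3.02 in siNT (SD, n = 3 each), a difference within the spread, so that this knockdown is seen in counts and not in TPM. VIM, a mesenchymal marker, had at least 1310 TPM (a length-scaled level with the same total in every sample) in every sample. The tight junction genes CLDN3, CLDN4 and CLDN7, expected to be low in claudin-low cells, had medians of 1.02 TPM or less in SUM159PT and HS578T but of 6.86, 149 and 35.4 TPM in MDA-MB-231, which also had median levels of 22.7 TPM for EPCAM and 333 TPM for KRT19. Endothelial and blood cell markers were low, the highest medians being 6.28 TPM for PECAM1 and 3.41 TPM for PTPRC, both in SUM159PT. Genes found almost only in one of the lines were used to ask whether a library held RNA of another line. Taken as a percent of their CPM in that line's matching controls, 25 MDA-MB-231 genes had medians of 25.1, 18 and 13.2% in HS578T siNRP1#5 replicates 1, 2 and 3. The medians were between 2.21 and 6.9% in HS578T siNRP1#3 and between 0.619 and 2.11% in HS578T siNT. By 30 SUM159PT genes, HS578T siNRP1#5 replicate 2 also stood at 5% of the SUM159PT level. These percents, called shares below, are on the scale of CPM and are not fractions of a library's reads. HS578T values under siRNA after subtraction of these reads are given with the SEMA3D and SEMA3E results.

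Of the 6 genes, 4 lie on chromosome 7 and 2 on chromosome 3 of GRCh38. On the minus strand of chromosome 7 stand SEMA3C (chr7:80742538-80922359), SEMA3E (chr7:83363238-83649139), SEMA3A (chr7:83955777-84492724) and SEMA3D (chr7:84995553-85187056), and on the plus strand of chromosome 3 stand SEMA3F (chr3:50155045-50189075) and SEMA3B (chr3:50267558-50277546). They span from 9.99 kb (SEMA3B) to 537 kb (SEMA3A). Antisense genes overlap SEMA3B and SEMA3F, and the authors' counting took strand into account.

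Promoters are shown for SEMA3D and SEMA3E, which had the largest knockdown changes that passed, and for SEMA3C beside them. Each run covers 250 bases before to 50 bases after a transcription start in RefSeq (GRCh38.p14), and 5 of the 6 genes had an entry among 35116 promoters. Capitals mark GC boxes (GGGCGG or CCGCCC) and TATA boxes (TATAAA or TTTATA), searched on both strands. The ZEB1 E-box (CACCTG or CAGGTG) was searched too and is in none of these 5.
SEMA3D, start of SEMA3D-201, minus strand, chr7:85187007-85187306: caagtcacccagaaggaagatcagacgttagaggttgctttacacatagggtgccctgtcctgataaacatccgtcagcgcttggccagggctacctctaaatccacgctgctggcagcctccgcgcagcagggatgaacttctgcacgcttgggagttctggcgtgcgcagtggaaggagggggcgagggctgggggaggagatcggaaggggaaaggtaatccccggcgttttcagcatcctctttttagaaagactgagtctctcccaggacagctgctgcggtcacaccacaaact
SEMA3E, start of SEMA3E-204, minus strand, chr7:83649090-83649389: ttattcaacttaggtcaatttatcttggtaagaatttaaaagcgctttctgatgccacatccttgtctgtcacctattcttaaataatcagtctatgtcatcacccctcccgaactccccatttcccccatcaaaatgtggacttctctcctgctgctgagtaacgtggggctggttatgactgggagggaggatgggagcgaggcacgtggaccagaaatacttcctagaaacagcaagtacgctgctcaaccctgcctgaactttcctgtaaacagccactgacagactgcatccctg
SEMA3E, start of SEMA3E-205, minus strand, chr7:83641382-83641681: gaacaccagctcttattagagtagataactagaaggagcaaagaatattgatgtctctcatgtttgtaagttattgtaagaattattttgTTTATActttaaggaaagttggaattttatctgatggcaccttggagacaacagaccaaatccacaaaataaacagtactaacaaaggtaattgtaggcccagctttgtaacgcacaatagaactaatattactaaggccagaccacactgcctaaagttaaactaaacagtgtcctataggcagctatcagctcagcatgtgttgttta
SEMA3C, start of SEMA3C-201, minus strand, chr7:80919002-80919301: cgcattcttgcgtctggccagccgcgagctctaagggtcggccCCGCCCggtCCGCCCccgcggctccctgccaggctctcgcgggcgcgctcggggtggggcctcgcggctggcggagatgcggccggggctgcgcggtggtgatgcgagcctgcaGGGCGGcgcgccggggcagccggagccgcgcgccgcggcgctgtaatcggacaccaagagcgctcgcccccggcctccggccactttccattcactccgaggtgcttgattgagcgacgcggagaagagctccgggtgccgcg
SEMA3C, second RefSeq start, minus strand, chr7:80922340-80922639: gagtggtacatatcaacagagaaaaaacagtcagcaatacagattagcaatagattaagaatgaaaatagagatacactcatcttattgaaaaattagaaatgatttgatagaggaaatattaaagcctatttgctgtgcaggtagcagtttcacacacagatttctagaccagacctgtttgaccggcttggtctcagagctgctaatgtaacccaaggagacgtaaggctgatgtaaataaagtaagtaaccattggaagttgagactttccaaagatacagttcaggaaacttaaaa

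The SEMA3D window had a GC content of 57% and held none of the 3 motifs. The SEMA3E windows had 47.3 and 35.7% GC, and the second held 1 TATA box. The first SEMA3C window had 75.7% GC and 3 GC boxes, and the second, near the start of SEMA3C-203, had 36% GC and none of the 3 motifs. Over all promoters the median GC content was 58.7% (quartiles 47 and 68%), and 45% held a GC box, 20.6% a ZEB1 E-box and 11.5% a TATA box. A match or its absence describes only the letters of the window.

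Levels of the 6 ligands set the cell lines apart before any knockdown. SUM159PT expressed mainly SEMA3C and SEMA3F, MDA-MB-231 mainly SEMA3B, and HS578T SEMA3F, SEMA3B and SEMA3C, whereas SEMA3D and SEMA3E were the scarcest in the controls of SUM159PT and HS578T, SEMA3E with at most 7.18 expected counts in a sample. The summed TPM of the 6 genes under siNT was 127 ± 50.6 (SD, n = 3) for SUM159PT, 49.9 ± 3.65 for HS578T and 45.6 ± 9.14 for MDA-MB-231. Under shNT the sums were 61.3 ± 8.41, 30.3 ± 10 and 63.1 ± 2.48 in the same order (n = 3 each). In bulk RNA, fewer cells expressing a gene and less RNA per cell cannot be told apart.

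**Figure D1:**
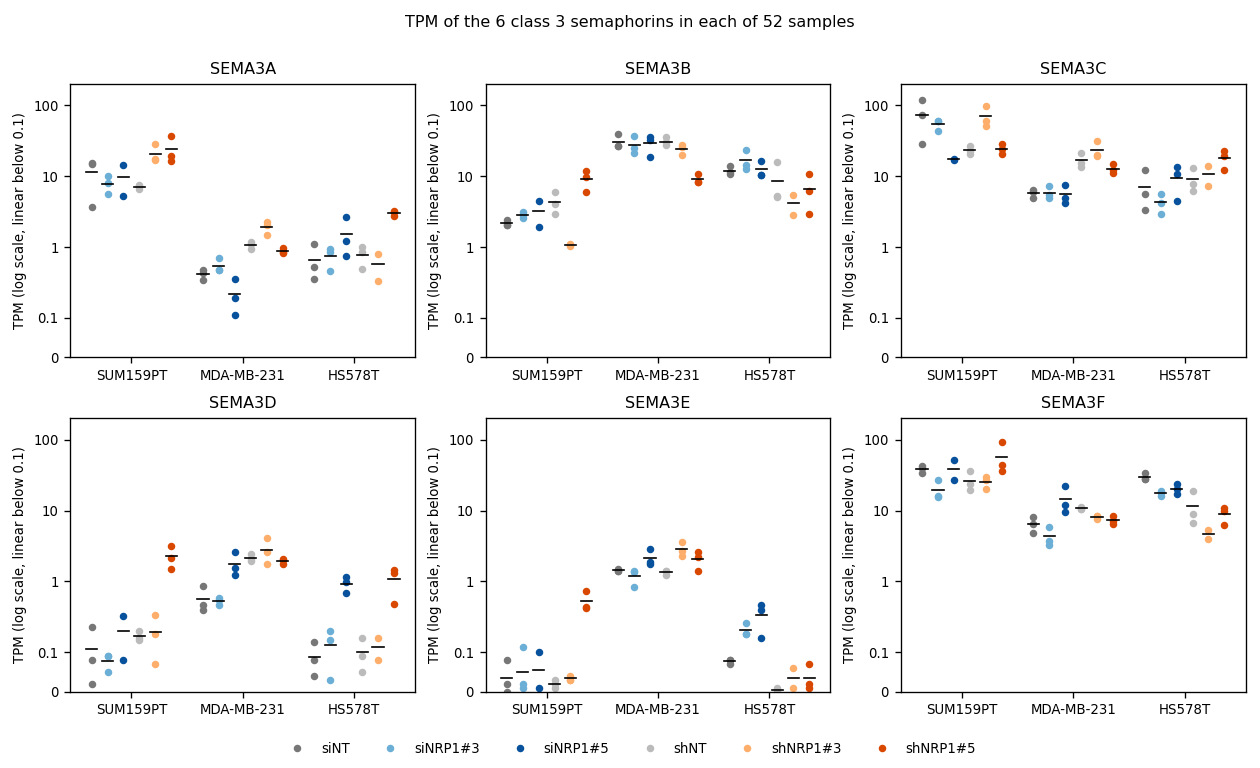
TPM of each class 3 semaphorin (y axis, logarithmic above 0.1 and linear below) in every sample, by cell line and treatment (x axis). Points are samples, horizontal bars are group means of 2 or 3 samples. SEMA3D and SEMA3E stay below 0.4 TPM in SUM159PT except with shNRP1#5, where all 3 samples reach at least 1.5 and 0.42 TPM.

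In the non-targeting controls SEMA3C had the highest TPM of the 6 genes in a single sample. SEMA3C measured 119.37, 28.14 and 74.09 TPM in SUM159PT siNT and 26.61, 20.48 and 22.68 TPM in SUM159PT shNT. MDA-MB-231 had 6.31, 4.94 and 6.08 TPM under siNT and 21.5, 13.7 and 15.27 TPM under shNT. HS578T had 12.17, 5.59 and 3.38 TPM under siNT and 6.17, 7.86 and 13.24 TPM under shNT. All SUM159PT siNT samples thus stood above all siNT samples of the other lines, and SUM159PT siNT replicate 2 was far below the other two. SEMA3B, by contrast, was a ligand of MDA-MB-231. It measured 26.76, 26.48 and 39.43 TPM in MDA-MB-231 siNT, against 10.74, 11.49 and 13.83 TPM for HS578T and only 2.39, 2.06 and 2.08 TPM in SUM159PT siNT, with no overlap between the lines under siNT. Under shNT SEMA3B spanned 27.4 to 35.4 TPM in MDA-MB-231, 5.04 to 15.7 in HS578T and 2.92 to 5.99 in SUM159PT. HS578T and SUM159PT overlapped there. SEMA3F measured 40.38, 42.91 and 34.18 TPM in SUM159PT siNT and 27.61, 28.09 and 34.43 TPM in HS578T siNT against 6.41, 4.9 and 8.1 TPM in MDA-MB-231 siNT. Its shNT samples spanned 19.3 to 36 TPM in SUM159PT, 6.75 to 19.2 in HS578T and 10.4 to 11.3 in MDA-MB-231. HS578T and MDA-MB-231 thus overlapped under shNT. SEMA3A measured 15.56, 3.65 and 14.75 TPM in SUM159PT siNT and at most 1.17 TPM in any control sample of the other lines. SEMA3E measured 1.5, 1.4 and 1.39 TPM in MDA-MB-231 siNT and at most 0.08 TPM in the controls of the other lines, so that this PLXND1 ligand was detected well in 1 line. SEMA3D measured 0.85, 0.39 and 0.47 TPM in MDA-MB-231 siNT, and the siNT samples of SUM159PT (0.23, 0.02 and 0.08 TPM) and HS578T (0.08, 0.14 and 0.04 TPM) were lower.

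The controls of the lines, taken as the mean of siNT and shNT in a model over all 52 samples, differed in 15 of 18 tests of a member. All 6 genes differed between SUM159PT and MDA-MB-231, where 59.4% of 23416 genes did, and all 6 between HS578T and MDA-MB-231, where 70.2% did. Between HS578T and SUM159PT 3 of 6 differed, against 63.5% of all genes, so that a line difference was common among genes in general. Against MDA-MB-231, SUM159PT had higher SEMA3A (log2 fold change 4.33, SE 0.315), SEMA3C (2.54, SE 0.25) and SEMA3F (2.34, SE 0.254) and lower SEMA3B (-2.92, SE 0.305), SEMA3D (-2.66, SE 0.405) and SEMA3E (-5.04, SE 0.38). HS578T against MDA-MB-231 had higher SEMA3F (1.82, SE 0.25) and lower SEMA3D (-2.96, SE 0.424), SEMA3E (-5.33, SE 0.413) and SEMA3B (-0.79, SE 0.284), the last lost without HS578T shNT replicate 3 (adjusted p = 0.0524). Its SEMA3A (0.69, adjusted p = 0.0333) and SEMA3C (0.54, adjusted p = 0.0427) were called higher. The SEMA3A call was lost without any one of 5 of the 12 control libraries (HS578T shNT replicate 3 and siNT replicate 1, MDA-MB-231 shNT replicates 2 and 3 and siNT replicate 3), and was 0.45 (adjusted p = 0.184) without HS578T siNT replicate 1. The SEMA3C call was lost without any one of 6 (HS578T shNT replicate 3 and siNT replicate 1, and replicates 2 and 3 of both MDA-MB-231 controls), and was 0.33 (adjusted p = 0.224) without HS578T siNT replicate 1. It was also lost after subtraction of other lines' reads at the control level (adjusted p = 0.0548). Both signs turned on log2(TPM + 0.1), to -0.0047 and -0.42. HS578T against SUM159PT had lower SEMA3A (-3.64) and SEMA3C (-2.003) and higher SEMA3B (2.13). SEMA3D (-0.30, adjusted p = 0.565), SEMA3E (-0.28, 0.663) and SEMA3F (-0.51, 0.0624) did not pass between these 2 lines.

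Over the 18 groups, the mean CPM of SEMA3A was highest in SUM159PT shNRP1#5, that of SEMA3B in MDA-MB-231 siNRP1#5, that of SEMA3C in SUM159PT siNT, those of SEMA3D and SEMA3F in SUM159PT shNRP1#5 and that of SEMA3E in MDA-MB-231 shNRP1#3. By mean TPM the top group was the same for 4 of the 6 genes, and was MDA-MB-231 shNT for SEMA3B and MDA-MB-231 shNRP1#3 for SEMA3D. In each gene's order of the 18 groups by CPM, most of the 17 pairs of neighbours had means that differed by no more than the larger of their 2 SDs. The difference exceeded that SD in 6 pairs for SEMA3E, 5 for SEMA3A, 3 for SEMA3C, 2 each for SEMA3D and SEMA3F and 1 for SEMA3B.

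How the control was delivered also mattered for some ligands. Between shNT and siNT, 5 of 18 member tests passed, 3 higher and 2 lower with shNT. In SUM159PT SEMA3C fell from 321, 108 and 183 CPM with siNT to 53.7, 52.8 and 55.3 CPM with shNT (log2 fold change -1.94, SE 0.313, adjusted p = 0.00287), 1 of 6 members where 14.4% of genes passed. In MDA-MB-231 3 of 6 passed, against 20.6% of genes. SEMA3A rose by 0.87 on the log2 scale (SE 0.262, adjusted p = 0.0233), SEMA3C by 0.87 (SE 0.198, adjusted p = 0.00423) and SEMA3D by 1.37 (SE 0.269, adjusted p = 0.00144). That of SEMA3A was lost without shNT replicate 1 (adjusted p = 0.149) or any one of siNT replicates 1, 2 and 3 (0.0548, 0.051 and 0.0737). In 1 fit over all 52 samples the calls of SEMA3A, SEMA3C and SEMA3D were all lost (adjusted p = 0.262, 0.146 and 0.144). In HS578T 1 of 6 passed, against 17.9% of genes, with SEMA3F lower in shNT (-1.305, SE 0.35, adjusted p = 0.0176). This call was lost without shNT replicate 2 (adjusted p = 0.079) or 3 (0.0875). Transfection, infection and the time of harvest differed together between these controls and cannot be told apart, and each knockdown was therefore compared with its own control.

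NRP1 knockdown changed the ligands unevenly. Over the 12 comparisons of a knockdown with its control, 19 of 72 member tests passed, 13 of them higher and 6 lower. Sequence #5 accounted for 14 of them, with 7 of 18 tests each for siNRP1#5 (5 higher, 2 lower) and shNRP1#5 (6 higher, 1 lower), while siNRP1#3 gave 2 of 18 (both lower) and shNRP1#3 gave 3 of 18 (2 higher, 1 lower). SEMA3D (4 of 12 tests) and SEMA3E (5 of 12) only rose where they passed, SEMA3B (2 of 12) only fell, and SEMA3A (2 higher, 1 lower), SEMA3C (1 and 1) and SEMA3F (1 and 2) went both ways. By line, 8 of 24 tests passed in MDA-MB-231, 7 in SUM159PT and 4 in HS578T.

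**Figure D2:**
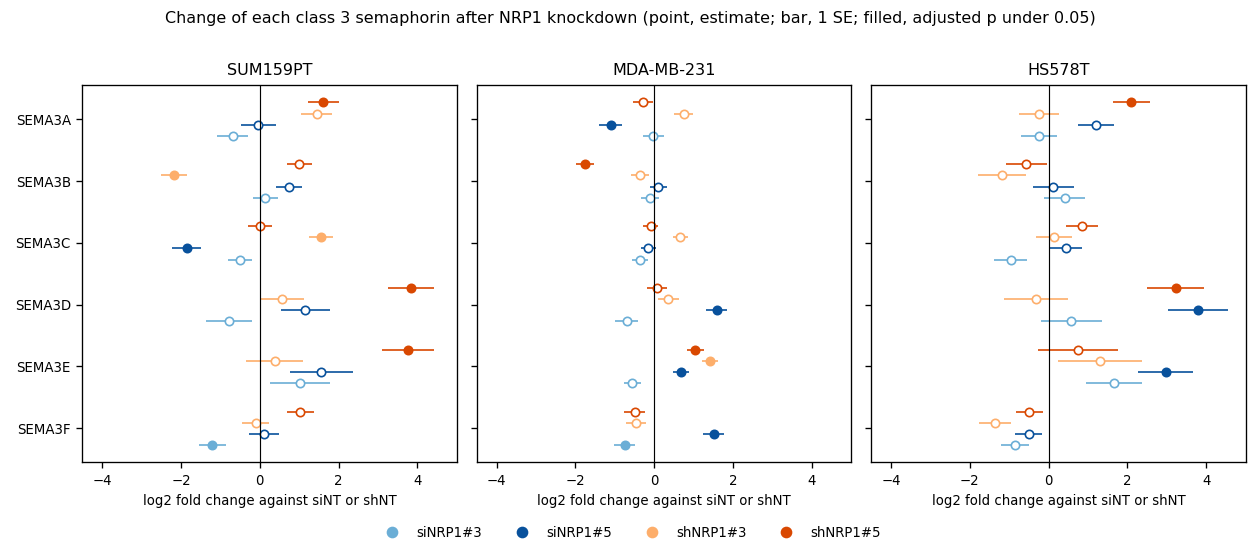
log2 fold change (x axis) of each class 3 semaphorin (y axis) in each knockdown against siNT or shNT of the same cell line. Points are edgeR estimates, bars are 1 SE, and filled points have an adjusted p under 0.05. Filled points of SEMA3D and SEMA3E lie to the right of 0 in every panel, and sequence #5 accounts for 8 of their 9.

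These counts stood beside different backgrounds. In SUM159PT siNRP1#3 called 1 of 6 members (8.66% of 20067 genes), siNRP1#5 called 1 (17.9%), shNRP1#3 called 2 (1.4%) and shNRP1#5 called 3 (5.94%). MDA-MB-231 had 1 of 6 with siNRP1#3 (25.7% of 18800 genes), 4 with siNRP1#5 (29.4%), 1 with shNRP1#3 (3.65%) and 2 with shNRP1#5 (20.7%). In HS578T siNRP1#3 called 0 of 6 (4.65% of 19661 genes), siNRP1#5 called 2 (18.7%), shNRP1#3 called 0 (0.0356%) and shNRP1#5 called 2 (0.946%). The median log2 fold change of the 6 members was 1.32 with shNRP1#5 in SUM159PT, 0.79 in HS578T and -0.19 in MDA-MB-231, where the medians over all genes were between 0.00 and 0.03. With siNRP1#5 it was 0.83 in HS578T, 0.43 in SUM159PT and 0.39 in MDA-MB-231, with medians of all genes between 0.01 and 0.03.

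SEMA3D, which takes part in patterning the heart and its vessels and can signal through either neuropilin, was raised by sequence #5 in all 3 lines, though not by both forms of it in each. In SUM159PT it measured 0.423, 0.576 and 0.428 CPM with shNT and 6.42, 4.71 and 8.94 CPM with shNRP1#5, with no overlap. This was a log2 fold change of 3.84 (SE 0.587, adjusted p = 0.000959), and it passed without any one of the libraries. The siRNA of the same sequence gave 0.636 and 1.47 CPM against 0.923, 0.115 and 0.389 CPM with siNT, which overlapped (1.16, SE 0.611, adjusted p = 0.196). In MDA-MB-231 the siRNA passed and the shRNA did not. The difference between the shRNA and siRNA changes, tested directly below, passed in this line but not in SUM159PT. SEMA3D measured 2.47, 1.58 and 1.55 CPM with siNT and 7.88, 5.1 and 3.51 CPM with siNRP1#5 (1.58, SE 0.272, adjusted p = 0.000213), again without overlap. The shRNA gave 4.3, 6.15 and 5.12 CPM against 5.58, 4.53 and 4.66 CPM with shNT (0.08, SE 0.255, adjusted p = 0.856), in cells where shNT already stood above siNT. In HS578T SEMA3D rose with both. It measured 0.378, 0.467 and 0.0631 CPM with siNT and 2.94, 3.68 and 6.12 CPM with siNRP1#5 (3.79, SE 0.765, adjusted p = 0.00322), and 1.07, 0.115 and 0.194 CPM with shNT and 6.18, 5.7 and 1.59 CPM with shNRP1#5 (3.22, SE 0.722, adjusted p = 0.0418). All samples with sequence #5 lay above all controls, but the shRNA call was lost without shNRP1#5 replicate 1 (adjusted p = 0.0594) or 2 (0.19) and without shNT replicate 2 (0.188) or 3 (0.122); the estimates without single libraries lay between 2.82 and 4.76. The HS578T controls held few SEMA3D reads, 2 to 16 expected counts in siNT and 3 to 51 in shNT, which limits these fold changes. By limma on log2(TPM + 1) the HS578T siRNA and shRNA changes were 0.83 and 0.89 (adjusted p = 0.00163 and 0.0208). With sequence #3 no SEMA3D test passed in any line. In MDA-MB-231 siNRP1#3 SEMA3D measured 1.22, 1.2 and 0.942 CPM, below every siNT sample (-0.70, SE 0.288, adjusted p = 0.0829).

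SEMA3E, a vascular repellent that acts through PLXND1, followed SEMA3D in part. In SUM159PT it had 4.09, 3 and 7.18 expected counts with shNT, close to the floor, and 50.16, 55.26 and 63.5 counts with shNRP1#5, which is 0.0806, 0.0596 and 0.115 CPM against 1.06, 0.999 and 1.48 CPM. The log2 fold change was 3.77 (SE 0.665, adjusted p = 0.00285) and passed without any one library. With siNRP1#5 in SUM159PT the 2 samples had 3.05 and 14.04 counts, and siNT had 0, 5 and 3, at or near the floor. In MDA-MB-231, the line that expressed it, SEMA3E measured 3.01, 3.04 and 2.77 CPM with siNT and 5.66, 4.21 and 4.04 CPM with siNRP1#5 (0.68, SE 0.21, adjusted p = 0.0193). This call was lost without siNRP1#5 replicate 1 (adjusted p = 0.0717) or siNT replicate 3 (0.0605). It was also lost in 1 fit over all 52 samples (0.358), with only the compared groups in the fit (0.094), and on log2(TPM + 0.1) (0.134) and log2(TPM + 1) (0.128). In the same line SEMA3E measured 1.89, 2.18 and 2.27 CPM with shNT, 6.37, 5.14 and 5.45 CPM with shNRP1#3 (1.42, SE 0.211, adjusted p = 0.000699) and 3.19, 5.58 and 4.32 CPM with shNRP1#5 (1.05, SE 0.209, adjusted p = 0.00192). Both shRNA groups lay wholly above shNT by CPM. In 1 fit over all 52 samples neither shRNA call held (adjusted p = 0.0754 for shNRP1#3 and 0.156 for shNRP1#5), and that with shNRP1#5 was also lost on log2(TPM + 0.1) (0.54, adjusted p = 0.159) and log2(TPM + 1) (0.36, adjusted p = 0.148). With siNRP1#3 it measured 1.57, 1.95 and 2.38 CPM, below every siNT sample (-0.56, SE 0.216, adjusted p = 0.0627). In HS578T SEMA3E had 4.04, 6 and 2 counts with siNT and 34, 49 and 20.05 counts with siNRP1#5 (2.97, SE 0.698, adjusted p = 0.00823). The shRNA samples of HS578T had 3.07, 0 and 0 counts with shNT and 3.06, 2 and 2 with shNRP1#5, all at about the floor, so that no fold is given.

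The MDA-MB-231 RNA in the HS578T siRNA libraries bears on these values, since MDA-MB-231 expressed SEMA3E and SEMA3D far above HS578T. SEMA3E measured 0.46, 0.39 and 0.16 TPM in HS578T siNRP1#5 replicates 1, 2 and 3, and the shares of MDA-MB-231 RNA would bring 0.359, 0.257 and 0.189 TPM at the control level of that line, or 0.54, 0.388 and 0.284 TPM at its siNRP1#5 level. SEMA3D measured 0.69, 0.97 and 1.14 TPM, where those shares would bring 0.143, 0.103 and 0.0752 TPM or 0.447, 0.32 and 0.235 TPM. The SEMA3D values exceeded both amounts in every replicate, whereas the SEMA3E values lay at or below the larger amount when given to 2 decimals. The shares were taken from CPM and applied to TPM, which is scaled otherwise, so that these amounts are approximate. They cannot settle whether SEMA3E values near an amount lie above or below it. The part of the MDA-MB-231 RNA in the SEMA3D values was not tested except by subtraction. The subtraction of reads was made on the scale of CPM. With the reads of the other lines subtracted at the control level, SEMA3D kept its call in HS578T siNRP1#5 (log2 fold change 4.11, adjusted p = 0.00464) and SEMA3E lost it (2.68, adjusted p = 0.0707). With subtraction at the level of the same treatment, SEMA3D gave 3.81 (adjusted p = 0.00838) and SEMA3E 1.401 (adjusted p = 0.47). Both subtractions also took reads from the siNT samples, which held only 2 to 16 counts of SEMA3D before. No other call of a member changed under either subtraction in the HS578T siRNA comparisons. SEMA3A with siNRP1#5 gave 1.34 (adjusted p = 0.0602) and 1.37 (0.0541), and SEMA3F with siNRP1#3 gave -0.81 under both. SEMA3B and SEMA3C with siNRP1#5 gave 0.06 and 0.52 under the first and 0.02 and 0.64 under the second. Between siNRP1#5 and siNRP1#3 the differences after subtraction were 1.56 and 1.59 for SEMA3A (adjusted p = 0.0309 and 0.0252), 1.465 and 1.58 for SEMA3C (0.0351 and 0.0207) and 3.60 and 3.22 for SEMA3D (0.00782 and 0.014). The HS578T shRNA libraries had a share of MDA-MB-231 RNA of at most 0.389%. Their SEMA3D and SEMA3A estimates with shNRP1#5 moved little under the first subtraction (3.23 and 2.12), but their adjusted p became 0.0869 and 0.0643.

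**Figure D3:**
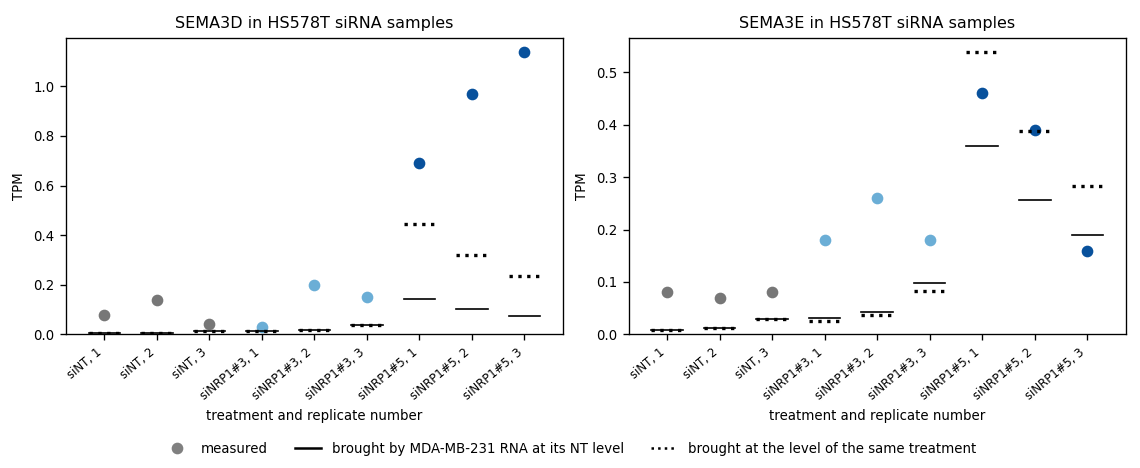
SEMA3D and SEMA3E (y axis, TPM) in the 9 HS578T siRNA samples (x axis, treatment and replicate). Points are measured values, solid lines the amount that the share of MDA-MB-231 RNA would bring at the control level of that line, dotted lines the amount at its level under the same treatment. SEMA3D stands above both lines in all 3 siNRP1#5 samples, while SEMA3E lies on or below the dotted line there. The lines apply shares taken from CPM to TPM and are approximate.

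SEMA3A, the axon repellent that binds NRP1, changed with sequence #5 in opposite directions. In SUM159PT it rose from 23.7, 20.8 and 27 CPM with shNT to 103, 67.5 and 44.1 CPM with shNRP1#5 (log2 fold change 1.61, SE 0.397, adjusted p = 0.0234), without overlap. The call was lost without shNRP1#5 replicate 1 (adjusted p = 0.111) or 2 (0.0648) and without shNT replicate 1 (0.0898), 2 (0.096) or 3 (0.0609). With shNRP1#3 SUM159PT gave 83.6, 56.5 and 53.8 CPM, also wholly above shNT (1.44, SE 0.396, adjusted p = 0.0903), and this passed where replicate number was kept as a block (adjusted p = 0.0436). In HS578T SEMA3A measured 1.93, 2.64 and 3.28 CPM with shNT and 12.7, 10.8 and 10.6 CPM with shNRP1#5 (2.10, SE 0.466, adjusted p = 0.0395). The groups were far apart, yet in a comparison where only 0.946% of genes passed the call was lost without any of the 6 libraries (adjusted p between 0.0523 and 0.169). In MDA-MB-231 SEMA3A fell with siNRP1#5, from 1.23, 1.34 and 1.08 CPM with siNT to 0.711, 0.635 and 0.312 CPM (-1.11, SE 0.292, adjusted p = 0.00759). By TPM these groups overlapped, with 0.34 to 0.47 in siNT and 0.11 to 0.35 in siNRP1#5. The call held without any one library. It was lost in 1 fit over all 52 samples (adjusted p = 0.122), on log2(TPM + 1) (-0.22, 0.157) and with only the compared groups in the fit (0.0699). The corresponding shRNA gave -0.29 (SE 0.253, adjusted p = 0.447), and siNRP1#5 in HS578T gave 2.28, 11.6 and 5.7 CPM against 4.47, 1.75 and 2.21 CPM (1.21, SE 0.458, adjusted p = 0.074). Replicate 2 of that group, the highest, was the library with a SUM159PT share of 5%, which would bring about 0.566 of its 2.7 TPM of SEMA3A.

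SEMA3B, a ligand named for tumour-suppressing activity, passed in 2 comparisons and fell in both. In MDA-MB-231, where it was the most abundant of the 6, it dropped from 41.8, 53 and 44.6 CPM with shNT to 16.5, 12.4 and 12.3 CPM with shNRP1#5 (log2 fold change -1.75, SE 0.233, adjusted p = 7.49e-05). In SUM159PT it dropped from 8.04, 11.4 and 5.62 CPM with shNT to 1.73, 2 and 1.77 CPM with shNRP1#3 (-2.18, SE 0.326, adjusted p = 0.00194), in a comparison that called 1.4% of genes. Both calls held without any one library, and neither pair of groups overlapped. The other shRNA of each line did otherwise. SUM159PT shNRP1#5 gave 16.4, 22.4 and 10.6 CPM, overlapping shNT (1.01, SE 0.31, adjusted p = 0.0667), and MDA-MB-231 shNRP1#3 gave 40.3, 37.6 and 31 CPM (-0.35, SE 0.226, adjusted p = 0.48). No siRNA changed SEMA3B in a way that passed, the estimates lying between -0.11 and 0.74. In HS578T siNRP1#5 (0.12, adjusted p = 0.903) the MDA-MB-231 RNA at that line's control level would bring 7.75, 5.56 and 4.08 TPM of SEMA3B to replicates 1, 2 and 3, whose measured levels lay between 10.47 and 16.67 TPM, against 10.74, 11.49 and 13.83 TPM measured in siNT. These amounts are a large part of the measured TPM in these 3 samples, but they apply shares taken from CPM to TPM and are approximate. The fit on counts gave the subtracted estimates above. The reason why the 2 differ was not tested.

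SEMA3C, with SEMA3F the most abundant of the ligands in SUM159PT, passed in 2 comparisons there and in no other line. It fell with siNRP1#5, from 321, 108 and 183 CPM to 62 and 49.3 CPM (log2 fold change -1.86, SE 0.363, adjusted p = 0.00336), a comparison with 2 samples on the knockdown side. It rose with shNRP1#3, from 53.7, 52.8 and 55.3 CPM to 218, 140 and 115 CPM (1.55, SE 0.31, adjusted p = 0.0164). Neither pair of groups overlapped, but the rise was lost without shNRP1#3 replicate 1 (adjusted p = 0.118) or shNT replicate 1 (0.0755), 2 (0.083) or 3 (0.0533). Since shNT was below siNT, the shNRP1#3 samples stood within the siNT range and the siNRP1#5 samples near shNT. In SUM159PT shNRP1#5 the values were 57.7, 55.5 and 46.1 CPM (0.01, SE 0.303, adjusted p = 0.994). The estimates in MDA-MB-231 were between -0.36 and 0.67 and in HS578T between -0.96 and 0.85, and none of them passed.

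SEMA3F, the ligand that prefers NRP2, fell with siNRP1#3 in 2 lines. In SUM159PT it went from 89.6, 125 and 70.3 CPM to 33.4, 60.5 and 29.4 CPM (log2 fold change -1.21, SE 0.348, adjusted p = 0.0403), and the call was lost without siNRP1#3 replicate 1 (adjusted p = 0.163) or 3 (0.152) or siNT replicate 1 (0.0662) or 2 (0.143). In MDA-MB-231 it went from 9.86, 8.72 and 15.6 CPM to 6.47, 5.54 and 8.17 CPM (-0.74, SE 0.266, adjusted p = 0.0476), and was lost without siNRP1#3 replicate 1 (0.124) or 2 (0.166) or siNT replicate 1 (0.0601) or 3 (0.245), the last giving -0.45. In HS578T siNRP1#3 gave 44.7, 41.9 and 42.7 CPM, below every siNT sample at 66.9, 73.4 and 92.6 CPM (-0.85, SE 0.347, adjusted p = 0.175). By CPM the groups did not overlap in any of the 3 lines. By TPM they overlapped in MDA-MB-231, with 4.9 to 8.1 in siNT and 3.31 to 5.96 in siNRP1#3. On log2(TPM + 0.1) and log2(TPM + 1) the SUM159PT call was lost (adjusted p = 0.0839 and 0.0833). With only its compared groups in the fit it was lost too (0.0629). The MDA-MB-231 call was lost on both scales (0.133 and 0.162), in 1 fit over all 52 samples (0.216) and with DESeq2 size factors. Sequence #5 as siRNA raised SEMA3F in MDA-MB-231, to 22.5, 23.3 and 50.5 CPM (1.51, SE 0.264, adjusted p = 0.000302), and this held without any one library. SEMA3F passed with no shRNA. HS578T shNRP1#3 gave -1.36 (SE 0.405, adjusted p = 0.365) with both samples below shNT, in the comparison that called only 0.0356% of genes.

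Sequence #5 set directly against sequence #3 of the same kind differed in 17 of 36 member tests, 11 higher and 6 lower with #5. As siRNA, 4 of 6 differed in MDA-MB-231 (39% of genes), 3 in SUM159PT (29.7%) and 3 in HS578T (18.1%). As shRNA, 3 of 6 differed in MDA-MB-231 (14.2%), 4 in SUM159PT (8.71%) and 0 in HS578T (0.544%). SEMA3D was higher with siNRP1#5 than with siNRP1#3 in all 3 lines, by 3.22 (SE 0.738) in HS578T, 2.28 (SE 0.284) in MDA-MB-231 and 1.94 (SE 0.629) in SUM159PT on the log2 scale, and higher with shNRP1#5 than with shNRP1#3 in SUM159PT by 3.27 (SE 0.57). The SUM159PT siRNA call was lost without siNRP1#3 replicate 1 (adjusted p = 0.0547), 2 (0.0625) or 3 (0.0893) or siNRP1#5 replicate 3 (0.279, log2 fold change 1.23). SEMA3E was higher with #5 in MDA-MB-231 siRNA (1.24, SE 0.215) and SUM159PT shRNA (3.38, SE 0.656). SEMA3F was higher with #5 as siRNA in MDA-MB-231 (2.25, SE 0.272) and SUM159PT (1.32, SE 0.378), the latter lost without siNRP1#3 replicate 1 (0.0612) or 3 (0.0604) or siNRP1#5 replicate 3 (0.111).

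The remaining ligands differed between the sequences in both directions. SEMA3B was higher with shNRP1#5 in SUM159PT (3.19, SE 0.338, adjusted p = 3e-05) and lower with it in MDA-MB-231 (-1.40, SE 0.231, adjusted p = 0.000735). SEMA3C was lower with #5 in SUM159PT as siRNA (-1.35, SE 0.355) and as shRNA (-1.54, SE 0.31) and in MDA-MB-231 as shRNA (-0.75, SE 0.196), and higher in HS578T as siRNA (1.41, SE 0.418). SEMA3A was lower with #5 in MDA-MB-231 as siRNA (-1.08, SE 0.294) and as shRNA (-1.04, SE 0.253) and higher in HS578T as siRNA (1.46, SE 0.462). Of these, the HS578T calls were lost without siNRP1#3 replicate 1 or 3 or siNRP1#5 replicate 2 or 3 (SEMA3A, adjusted p between 0.0626 and 0.262, SEMA3C between 0.0533 and 0.171), and the SEMA3A difference was 0.77 without siNRP1#5 replicate 2 and that of SEMA3C 0.89 without replicate 3. The MDA-MB-231 shRNA calls were lost without shNRP1#3 replicate 3 (0.0569) or shNRP1#5 replicate 2 (0.0508) for SEMA3A and without shNRP1#3 replicate 1 (0.105) or shNRP1#5 replicate 1 (0.0609) or 3 (0.0686) for SEMA3C, and the SUM159PT siRNA call of SEMA3C without siNRP1#5 replicate 3 (0.0848).

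Averaged over the 3 lines, SEMA3D and SEMA3E were the ligands that sequence #5 raised in both forms. The mean log2 fold change of SEMA3D was 2.17 with siNRP1#5 (SE 0.342, adjusted p = 4.39e-06) and 2.35 with shNRP1#5 (SE 0.32, adjusted p = 1.35e-06), and that of SEMA3E was 1.74 (SE 0.319, adjusted p = 4.66e-05) and 1.82 (SE 0.38, adjusted p = 0.00078). SEMA3E with shNRP1#5 gave 2.97 without HS578T shNT replicate 1, the 1 shNT library of that line with any SEMA3E reads. The SEMA3E means include SUM159PT siRNA and HS578T shRNA groups at or near the floor, and the HS578T siNRP1#5 libraries with MDA-MB-231 RNA. In the same fit SEMA3E gave 0.66, 1.58 and 2.97 with siNRP1#5 in MDA-MB-231, SUM159PT and HS578T. With shNRP1#5 it gave 1.04, 3.73 and 0.70. Only HS578T siNRP1#5 and SUM159PT shNRP1#5 passed among these. SEMA3A rose with shNRP1#5 (1.14, SE 0.23, adjusted p = 0.000556), a rise that was 0.64 with an adjusted p of 0.155 without HS578T. Sequence #3 did not raise SEMA3D or SEMA3E on average (SEMA3D -0.31 and 0.19, SEMA3E 0.71 and 1.03 with siRNA and shRNA, adjusted p between 0.112 and 0.836). It lowered SEMA3F as siRNA (-0.94, SE 0.2, adjusted p = 0.000515) and SEMA3B as shRNA (-1.24, SE 0.251, adjusted p = 0.0013). SEMA3C fell with siNRP1#3 (-0.62, adjusted p = 0.0194) and siNRP1#5 (-0.53, adjusted p = 0.0457) and rose with shNRP1#3 (0.79, adjusted p = 0.011). In all, 2 of 6 members passed with siNRP1#3 (21.3% of genes), 3 with siNRP1#5 (30.3%), 2 with shNRP1#3 (5.91%) and 3 with shNRP1#5 (15.5%).

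The mean changes of SEMA3C rested on single libraries. The siNRP1#3 call was lost without HS578T siNRP1#3 replicate 1 (adjusted p = 0.055), HS578T siNT replicate 1 (0.0763) or SUM159PT siNT replicate 1 (0.0853), and the shNRP1#3 call without HS578T shNRP1#3 replicate 2 (0.0556). The siNRP1#5 call was lost without any one of 11 libraries of the 3 lines, with an adjusted p of up to 0.171 and a log2 fold change of -0.36 without SUM159PT siNT replicate 1. The SEMA3D and SEMA3E calls with siNRP1#5 held after subtraction of other lines' reads at the control level (2.24 and 1.61, adjusted p = 3.63e-06 and 0.000752) and at the level of the same treatment (2.14 and 1.16, adjusted p = 1.54e-05 and 0.0387), where SEMA3C no longer passed (-0.48, adjusted p = 0.0734). Without HS578T altogether, SEMA3D and SEMA3E with siNRP1#5 had mean changes of 1.36 (adjusted p = 0.0116) and 1.12 (adjusted p = 0.0322). In the same fit SEMA3C gave -1.02 with siNRP1#5 (adjusted p = 0.00286) and 1.10 with shNRP1#3 (0.00325) but no longer passed with siNRP1#3 (-0.45, 0.209), while SEMA3F with siNRP1#5 (0.80, 0.0174) and SEMA3A with shNRP1#3 (1.09, 0.0147) newly passed.

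The 3 lines did not respond alike to sequence #5. A test of equal log2 fold changes in the lines passed for 5 of 6 members with siNRP1#5, where 18.2% of genes passed, namely SEMA3A, SEMA3C, SEMA3D, SEMA3E and SEMA3F (adjusted p between 0.00356 and 0.0442). With shNRP1#5 it passed for SEMA3A, SEMA3B, SEMA3D and SEMA3E (adjusted p between 0.00334 and 0.021), 4 of 6 where 3.81% of genes passed. It passed for 0 of 6 with siNRP1#3 (3.42%) and for 0 of 6 with shNRP1#3 (0.747%). The single lines behind this were given above. SEMA3D with shNRP1#5 had 3.84 in SUM159PT, 3.22 in HS578T and 0.08 in MDA-MB-231, and SEMA3A 1.61, 2.10 and -0.29. SEMA3E lost the difference between lines when the reads of other lines were subtracted, with adjusted p of 0.213 for siNRP1#5 and 0.061 for shNRP1#5 at the control level and of 0.787 and 0.11 at the level of the same treatment, where SEMA3D with siNRP1#5 also missed the threshold (0.0597).

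The same #5 sequence delivered as shRNA and as siRNA gave different changes for 4 of 18 member tests. In MDA-MB-231, 3 of 6 members differed, against 23.7% of genes. The shRNA change minus the siRNA change was -1.86 for SEMA3B (SE 0.322, adjusted p = 0.000425), -1.504 for SEMA3D (SE 0.371, adjusted p = 0.00641) and -2.002 for SEMA3F (SE 0.369, adjusted p = 0.000712), on the log2 scale. In SUM159PT 1 of 6 differed, against 2.51% of genes, with SEMA3C at 1.87 (SE 0.465, adjusted p = 0.0446), which was lost without any one of 9 libraries (adjusted p between 0.056 and 0.0988). In HS578T 0 of 6 differed, against 0.854% of genes. The log2 fold change of NRP1 itself was smaller in size with shNRP1#5 than with siNRP1#5, a difference not tested here, at -2.09 against -2.66 in HS578T, -2.30 against -4.31 in SUM159PT and -1.05 against -4.88 in MDA-MB-231.

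The receptors of these ligands mostly fell. Of 7 receptor genes, the mean over lines passed as lower for 6 with siNRP1#3, 4 with siNRP1#5, 5 with shNRP1#3 and 5 with shNRP1#5, and as higher for 0, 1, 0 and 1. In that order 21.3, 30.3, 5.91 and 15.5% of all genes passed in either direction, and the median log2 fold change of the 7 was -1.11, -0.56, -0.60 and -0.74 where that of all genes lay between 0.02 and 0.05. The targeted NRP1 is one of them, with mean log2 fold changes of -1.34, -3.96, -1.45 and -1.82 in that order. NRP2, the second neuropilin and the receptor SEMA3F prefers, fell with all 4 (-1.14, -0.56, -0.60 and -1.10), as did PLXNA1 (-1.47, -0.59, -0.58 and -0.74), a signalling partner of the neuropilins. The NRP2 mean did not hold for each line. In HS578T it measured 6.22 ± 0.159 TPM with shNT, 8.23 ± 0.764 with shNRP1#3 (n = 2) and 6.83 ± 2.12 with shNRP1#5, with log2 fold changes of 0.31 (adjusted p = 0.858) and -0.22 (0.679). PLXNA1 had negative estimates in all 12 comparisons of a single line, 6 of which passed. PLXNA2, another A plexin, fell with siNRP1#3 (-0.91) and rose with siNRP1#5 (0.76) and shNRP1#5 (0.64). PLXND1, the receptor of SEMA3E, fell with siNRP1#3 (-0.73) and shNRP1#3 (-0.85) and had values of 0.45 and 0.21 with siNRP1#5 and shNRP1#5 that did not pass.

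**Figure D4:**
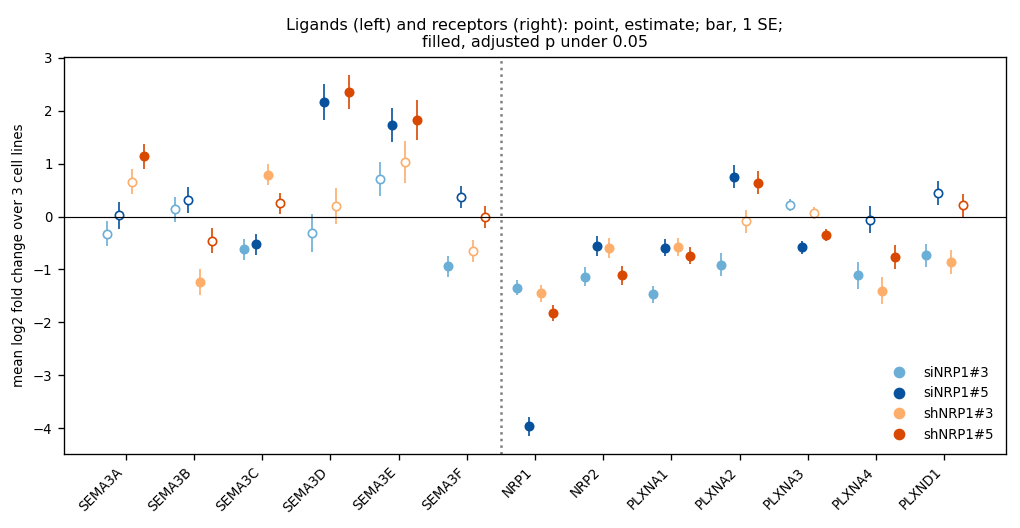
Mean log2 fold change over the 3 cell lines (y axis) for the 6 ligands and 7 receptors (x axis) in each knockdown against its control. Points are edgeR estimates, bars are 1 SE, filled points have an adjusted p under 0.05. In these means SEMA3D and SEMA3E are raised by both forms of sequence #5, while NRP1, NRP2 and PLXNA1 lie below 0 in all 4 knockdowns. The SEMA3E means include groups at or near the floor of counts.

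Receptor levels differed between the lines as well. In the controls HS578T had more PLXND1 than MDA-MB-231 (log2 fold change 1.82, SE 0.269) and SUM159PT (2.15, SE 0.272) and more PLXNA4, a plexin of SEMA3A signalling (4.71, SE 0.32, and 4.66, SE 0.321), and SUM159PT had more NRP1 (0.95, SE 0.176) and less NRP2 (-1.54, SE 0.222) than MDA-MB-231. HS578T thus held the most PLXND1 and close to no SEMA3E.

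Other genes of the pathway showed no common direction. Among co-receptors, 4 of 5 were tested, and the mean over lines passed for MET with siNRP1#3 (1.24) and siNRP1#5 (1.49), for NRCAM with shNRP1#3 (1.63) and shNRP1#5 (1.298) and for L1CAM, an adhesion molecule that binds NRP1, with siNRP1#3 (-0.68) and shNRP1#3 (-0.88). Of 5 proteases that could process semaphorins, PCSK7 rose with siNRP1#3 (0.77) and siNRP1#5 (0.59), PCSK6 fell with siNRP1#3 (-1.19) and ADAMTS1 rose with shNRP1#5 (1.495), while FURIN had values between 0.05 and 0.18 and passed nowhere. Of 21 downstream genes tested, 5 rose and 0 fell with siNRP1#3, 6 and 3 with siNRP1#5, 1 and 1 with shNRP1#3 and 2 and 5 with shNRP1#5, with medians of 0.22, -0.02, -0.05 and -0.21. Beside the 21.3, 30.3, 5.91 and 15.5% of all genes that passed, the siNRP1#3 and shNRP1#3 counts were near the background. FES, a kinase of plexin signalling, rose with siNRP1#5 (1.33) and shNRP1#5 (1.34), and DPYSL2, a collapsin response mediator, fell with both (-0.77 and -0.58). Of 3 VEGF ligands of the neuropilins, VEGFA fell with siNRP1#3 (-0.64), VEGFC rose with siNRP1#3 (0.33) and shNRP1#5 (0.60) and PGF rose with siNRP1#5 (1.27).

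SEMA3G, the remaining class 3 semaphorin and not one of the 6, fell in all 4 (-1.79, -1.12, -1.55 and -0.75 with siNRP1#3, siNRP1#5, shNRP1#3 and shNRP1#5). Of 14 other semaphorins with it, 1 rose and 3 fell with siNRP1#3, 0 and 2 with siNRP1#5, 0 and 3 with shNRP1#3 and 0 and 4 with shNRP1#5, against the same shares of all genes. Of 6 markers of other cell types, 3 rose and 1 fell with siNRP1#3, 3 rose with siNRP1#5 and 0 passed with either shRNA. The epithelial genes EPCAM (0.94 and 1.27) and KRT19 (1.299 and 2.08), which MDA-MB-231 expresses, rose with siNRP1#3 and siNRP1#5, and the part of the MDA-MB-231 RNA in HS578T in these means was not tested. Of the 4 genes that claudin-low cells lack, 1 rose and 1 fell with siNRP1#3, 4 rose with siNRP1#5, 0 passed with shNRP1#3 and 1 rose with shNRP1#5. CLDN3, CLDN4 and CLDN7 are among them and are genes of MDA-MB-231. With siNRP1#5 they had log2 fold changes of 5.21, 2.93 and 2.93 in HS578T, whose samples held the MDA-MB-231 RNA, and of -0.78, 0.44 and -0.12 in MDA-MB-231 itself. CLDN4 also rose in SUM159PT (2.52, adjusted p = 0.00125). The part of that RNA in the claudin means was not tested. Of the 4 that they express, 2 fell with siNRP1#3, 1 rose with siNRP1#5 and 0 passed with either shRNA.

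The ligands were also compared with each other over the 18 group means of log2 CPM after the mean of each line was taken out. The groups share libraries and depth, so that these are descriptions. SEMA3D varied most like SEMA3A (r = 0.65) and SEMA3E (r = 0.63), SEMA3B like SEMA3F (r = 0.59) and SEMA3A like SEMA3C (r = 0.58), while SEMA3B and SEMA3C went in opposite directions (r = -0.63). With line differences left in, SEMA3A and SEMA3C had r = 0.89 and SEMA3B and SEMA3C r = -0.88. Among all tested genes, those whose pattern over the group means minus line means was most like SEMA3D were POMK (r = 0.924), RASSF8 (0.921) and STX3 (0.898), those most like SEMA3E were C4BPB (0.957), CCDC8 (0.91) and INMT-MINDY4 (0.9), and those most like SEMA3A were PPARGC1A (0.913), TBC1D4 (0.885) and NOXRED1 (0.861). For SEMA3B they were VWA1 (0.888), L1CAM (0.875) and SERPING1 (0.843), for SEMA3C ARID5B (0.916), CD226 (0.904) and C3orf62 (0.846), and for SEMA3F ADGRA2 (0.923), a gene without a symbol and COL6A1 (0.902).

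Transcripts of the ligands were compared by the deposited isoform percent, the share of a gene's TPM that falls to each transcript. The tables list 7 transcripts of SEMA3A, 15 of SEMA3B, 9 of SEMA3C, 4 of SEMA3D, 6 of SEMA3E and 9 of SEMA3F. In MDA-MB-231 the leading SEMA3E transcript was SEMA3E-205, which starts at the second of the promoters shown, with 56.6% ± 7.81 of SEMA3E in siNT, 58.4% ± 2.72 in siNRP1#5, 41.7% ± 6.96 in shNT and 60.7% ± 5.93 in shNRP1#5 (SD, n = 3 each). SEMA3E-204, which starts at the first and is annotated as protein coding, held between 17.8 and 24.5% in those groups. SEMA3E-205 has no coding sequence defined in the annotation, so that gene-level SEMA3E includes RNA not shown to encode the ligand. In SUM159PT shNRP1#5, the group where SEMA3E appeared, SEMA3E-205 held 57.7% ± 5.9. SEMA3D-201, the transcript at the SEMA3D promoter shown, held 52.7% ± 5.49 of SEMA3D in SUM159PT shNRP1#5, 48.7% ± 8.97 in MDA-MB-231 siNRP1#5 and 46.3% ± 8 in HS578T siNRP1#5 (n = 3 each). SEMA3D-204, a shorter transcript of 10 exons against 19 and also without a defined coding sequence, held 37.2% ± 3.45, 38.9% ± 10.7 and 18.4% ± 6.15 in those groups. In SUM159PT siNT, SEMA3C was split between SEMA3C-201 (52.6% ± 12.8) and SEMA3C-203 (35.4% ± 7.77), which start at different places, and in siNRP1#5 the shares were 40.7% ± 4.43 and 41.2% ± 10.9 (n = 2), within the spread of siNT. SEMA3A was split between SEMA3A-201 and SEMA3A-204, with 33.1% ± 4.79 and 64% ± 4.59 in SUM159PT shNT and 33.5% ± 8.22 and 61.3% ± 5.83 in shNRP1#5, so that the split moved by less than the spread between replicates while the gene rose.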

How the data were processed

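RNA of 52 samples in 18 groups of cell line and treatment was sequenced as stranded poly(A) libraries. The authors trimmed reads with Trim Galore 0.6.5 after FastQC 0.11.9, aligned them with STAR 2.7.2b to GRCh38 and quantified them with RSEM 1.3.3, with strand taken into account. The deposited files hold expected counts per gene and transcript, which are not normalised. The deposited TPM divide by length and total, and the deposited isoform percent gives each transcript's share of its gene. The authors removed 2 samples as outliers, and these were not analysed here.

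Expected counts were rounded and fitted in R 4.3.3 with edgeR 4.0.16 (filterByExpr, TMM, robust glmQLFit, glmQLFTest), 1 model of 6 groups per cell line, with Benjamini-Hochberg adjustment over 20067 (SUM159PT), 18800 (MDA-MB-231) or 19661 (HS578T) genes and a threshold of 0.05. A model of 18 groups over 52 samples (23416 genes) gave the cell line, mean and equality tests. SE is the log2 fold change divided by the square root of F. The code was tested on simulated data. No library was a copy of another of the same group (chi-square of replicate counts over its degrees of freedom at least 10). Libraries of different groups were not compared in this way. CPM were computed with TMM totals. limma 3.58.1 on log2(TPM + 0.1) and log2(TPM + 1) and DESeq2 1.42.0 were alternatives, as were other size factors, no filter, smaller fits, a replicate block and leaving out each library. Same-numbered replicates deviated together (every pair's correlation over 0.1) in 4 comparisons with 3 pairs, SUM159PT siNRP1#3 and shNRP1#3, MDA-MB-231 siNRP1#5 and HS578T shNRP1#5. They also did so in the comparisons with 2 pairs, SUM159PT siNRP1#5 (0.132 and 0.37) and HS578T shNRP1#3 (0.484 and 0.21). The correlations there lay between 0.111 and 0.61.

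RNA of another line was estimated from 30 SUM159PT, 25 MDA-MB-231 and 60 HS578T genes, by a marker rule chosen after the data had been seen because the first rule left 0 MDA-MB-231 genes. Subtracting that line's reads was likewise added later. The 6 members, the gene lists (receptors, co-receptors, other semaphorins, proteases, downstream genes, VEGF ligands, claudin-low markers and other cell types) and the tests were chosen with earlier results of these data known. Named genes were the 6 members, list genes that passed in a mean over lines or had the largest change of their list, and the 3 genes most like each member by Pearson's r. FURIN and the markers were named outside this rule. Positions and exons are from GENCODE v44, an earlier release than the authors' with the same gene and transcript identifiers, and promoters from RefSeq. Counting limits cover counting error only, since reads carried no molecular identifiers.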

Additional observations from a re-analysis of the deposited data

Results flagged for a closer look

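The changes with sequence #5 differed between the 3 cell lines for 9 ligand and knockdown pairs, by the equality test of the 18-group edgeR model. With siNRP1#5 the adjusted p was 0.0151 for SEMA3A, which fell in MDA-MB-231 (-1.11) and had 1.21 in HS578T, 0.00356 for SEMA3C, which fell in SUM159PT (-1.86) and had 0.45 in HS578T, 0.0442 for SEMA3D, which had estimates between 1.16 and 3.79, 0.0338 for SEMA3E, with estimates between 0.68 and 2.97, and 0.00864 for SEMA3F, which rose in MDA-MB-231 (1.51) and had -0.51 in HS578T. The HS578T samples of this comparison had shares of MDA-MB-231 RNA between 13.2 and 25.1% on the scale of CPM. The part of that RNA in these differences was not tested except by subtraction, after which SEMA3E no longer passed (adjusted p = 0.213, or 0.787 at the level of the same treatment, where SEMA3D gave 0.0597).

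With shNRP1#5 the adjusted p was 0.017 for SEMA3A, 0.00937 for SEMA3B, 0.00334 for SEMA3D and 0.021 for SEMA3E. SEMA3B had 1.01 in SUM159PT and fell in MDA-MB-231 (-1.75). SEMA3D rose in SUM159PT (3.84) and HS578T (3.22) and had 0.08 in MDA-MB-231, where shNT stood 1.37 above siNT on the log2 scale.

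The change with shNRP1#5 minus that with siNRP1#5 stood out in MDA-MB-231 for SEMA3F (-2.002), SEMA3B (-1.86) and SEMA3D (-1.504) and in SUM159PT for SEMA3C (1.87), by an interaction test in the model of each line. The last was lost without any one of 9 libraries (adjusted p between 0.056 and 0.0988). The 2 forms differ in delivery, selection, harvest and depth of NRP1 knockdown, which cannot be told apart.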

How the results depend on the processing

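Over 3369 member values under the alternatives, 3116 kept their direction and side of the threshold, 158 lost their call, 91 gained one and 4 reversed, and 140 changed sign where neither value was called. The reversals were SEMA3A and SEMA3C between HS578T and MDA-MB-231 controls, at -0.0047 and -0.42 on log2(TPM + 0.1) and -0.0113 and -0.38 on log2(TPM + 1). The 19 knockdown calls became 12 on log2(TPM + 0.1). Calls between shNT and siNT were 2 in 1 fit over 52 samples and 8 with no filter on low counts. Without each library in turn, the counts were 17 to 21 for knockdowns, 4 to 6 for shNT against siNT, 14 to 18 for #5 against #3, 3 to 6 for the differences between shRNA and siRNA, 12 to 17 for cell lines and 8 to 11 for means. In the 52-sample fits these kept the trended dispersions of the full fit. Comparisons that did not hold the left-out library kept their reported value. These totals could therefore move little, and the single calls that were lost are given above. Of the 19 knockdown calls, 19 were kept by DESeq2, 18 with its size factors in edgeR, 13 in 1 fit over 52 samples, 13 with only the compared groups and 16 after subtraction of other lines' reads. With a replicate block the 19 were kept and 4 gained (SUM159PT shNRP1#3 SEMA3A and shNRP1#5 SEMA3B, and MDA-MB-231 shNRP1#3 SEMA3C and siNRP1#3 SEMA3D), giving 23, and the other counts were 5 for shNT against siNT, 18 for #5 against #3, 4 for shRNA minus siRNA, 12 for cell lines, 10 for means and 10 for equality. The block lost the HS578T against MDA-MB-231 calls of SEMA3A, SEMA3B and SEMA3C and the mean siNRP1#5 call of SEMA3C (adjusted p = 0.0536). The cause of these changes was not tested. Equality was recomputed only with edgeR alternatives, and not without single libraries. SEMA3E in SUM159PT and HS578T controls lay at or near the floor of 3 counts, which limits its fold changes. SEMA3D had 2 to 16 counts in HS578T siNT and 3 to 51 in HS578T shNT, which limits its fold changes there.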
